A study of Drosophila melanogaster with 4 samples.

Results

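The regions described here are sites of MBD-R2 binding on 3R, the right arm of chromosome 3 of Drosophila melanogaster, that were found in both libraries of a chromatin immunoprecipitation and sequencing (ChIP-seq) experiment. They were chosen as the 3R regions of ChIP replicate 1 that overlap a 3R region of ChIP replicate 2 by at least 1 bp. There are 942 of them, out of 1045 regions that replicate 1 lists on 3R and out of 4146 shared regions on all sequences. Both ChIP libraries came from wild-type Oregon-R embryos, a standard laboratory stock, at 14 to 16 h of age, and were made with the antibody Q4167 against MBD-R2. There were 2 ChIP and 2 input libraries, an input being chromatin sequenced without immunoprecipitation, and the labels tie each input to the ChIP library of its number. Whole embryos were used, so binding in different tissues is averaged, and the labels do not state that the replicates are separate embryo collections.

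MBD-R2 is a subunit of the fly NSL (non-specific lethal) complex, in which it acts together with NSL1, NSL3, MCRS2, WDS and the histone acetyltransferase MOF. The complex is known for binding near the starts of broadly expressed, housekeeping genes on all chromosomes and for acetylating histone H4 at lysine residues there. MOF also belongs to the MSL dosage compensation complex, which acts on the male X chromosome, whereas 3R is an autosomal arm. Binding of MOF and of the other NSL subunits was not examined here. In the numbering of the fly genome, 3R starts next to the centromere of chromosome 3 and ends at the telomere. The heterochromatin beyond its start is kept as a separate scaffold, 3RHet.

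All positions are on FlyBase release 5 and are counted from 1. The lists give each region a start, an end and 1 score from the authors' caller, with a scale not given in the sources at hand. Scores were therefore used to describe and rank regions within a list. Read depth is unknown from such lists, so a region missing from 1 list may lie below that list's threshold. No gene annotation or genome sequence of release 5 was used, so no gene is named and no sequence is shown.

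MBD-R2 regions were spread over the whole of 3R and were found in much the same places in both libraries. Replicate 1 listed 1045 regions covering 3.46 Mb, or 12.4%, of the 27.9 Mb arm, and replicate 2 listed 1088 regions covering 3.70 Mb, or 13.2%. Bases under regions of both lists summed to 3.16 Mb, which was 91.3% of the bases covered in replicate 1, 85.4% of those in replicate 2 and 79.0% of those covered in either. Of the replicate 1 regions on 3R, 90.1% were shared (95% Wilson interval 88.2 to 91.8%), against 90.4% over all sequences. Of the replicate 2 regions on 3R, 928, or 85.3% (83.1 to 87.3%), were shared, against 84.7% over all sequences. These intervals cover counting error only. The shares on 3R were thus near those of the series as a whole.

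Sharing on 3R followed the score. In each list the higher-scoring 50% of 3R regions were all found in the other list. In replicate 1 with regions ranked by score and cut into 4 equal classes, that was 261 of 261 regions in each of the upper classes, 242 of 261 in the next and 178 of 262, or 67.9%, in the lowest. In replicate 2 it was 272 of 272 in each of the upper classes, 259 of 272 in the next and 125 of 272, or 46.0%, in the lowest.

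The 103 replicate 1 regions on 3R without a partner were narrow and weak, measuring 1490 bp and scoring 0.518 at the median. The 160 such regions of replicate 2 had medians of 1556 bp and 0.455. The highest-scoring of them in replicate 1 lay from 13603448 to 13607125 with a score of 0.811, which ranked 642 on the arm. In replicate 2 it lay from 25699037 to 25700361, with a score of 0.675 and rank 748. Of the unshared regions, 20 of 103 in replicate 1 and 26 of 160 in replicate 2 lay less than 1 kb from a region of the other list. The nearest miss in replicate 1, from 16408155 to 16410167, ended 71 bp short of a replicate 2 region, and the nearest miss in replicate 2 was 47 bp away. Just inside the rule, the smallest overlaps were 58 bp, 206 bp and 723 bp, in regions starting at 19865956, 5072531 and 6524161. They were the 3 members covered over less than 50% of their width. The combined list of the replicate set held a part of all 942 members, of 96 of the 103 unshared replicate 1 regions and of 157 of the 160 unshared replicate 2 regions.

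Region borders were placed closely in both libraries. For 858 members, 91.1% of all, exactly 1 region of each list was involved. Among these the start moved by a median of 117 bp and the end by a median of 111 bp between replicates, and the 90th percentiles were 523 bp and 500.2 bp. Regions were mostly a little wider in replicate 2, by a median of 86 bp, and 65.0% of the 858 pairs were wider there. The median member had 99.1% of its bases inside replicate 2 regions, and 375 members lay wholly inside them. In the remaining cases neighbouring regions were joined in one list and apart in the other: 20 members met 2 replicate 2 regions and 1 met 3, while 34 replicate 2 regions met 2 regions of replicate 1 and 1 met 3. One such site was a replicate 2 region from 17039806 to 17051061 with a score of 1.42. Replicate 1 has 3 regions there, starting at 17039822, 17042806 and 17047296, with scores of 1.34, 1.56 and 1.42.

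The order of the members by score was close between libraries. Scores ran from 0.281 to 2.30 over the members in replicate 1, with a median of 1.05 and quartiles of 0.704 and 1.34. Their best-scoring partners in replicate 2 had a median of 1.09, and 576 of 942 members (61.1%) scored higher in replicate 2. The middle 50% of differences, replicate 2 minus replicate 1, lay between -0.0481 and 0.125. Spearman's correlation of member and partner scores was 0.943 over the 942 members, a description across regions that share their libraries, not across samples.

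**Figure D1:**
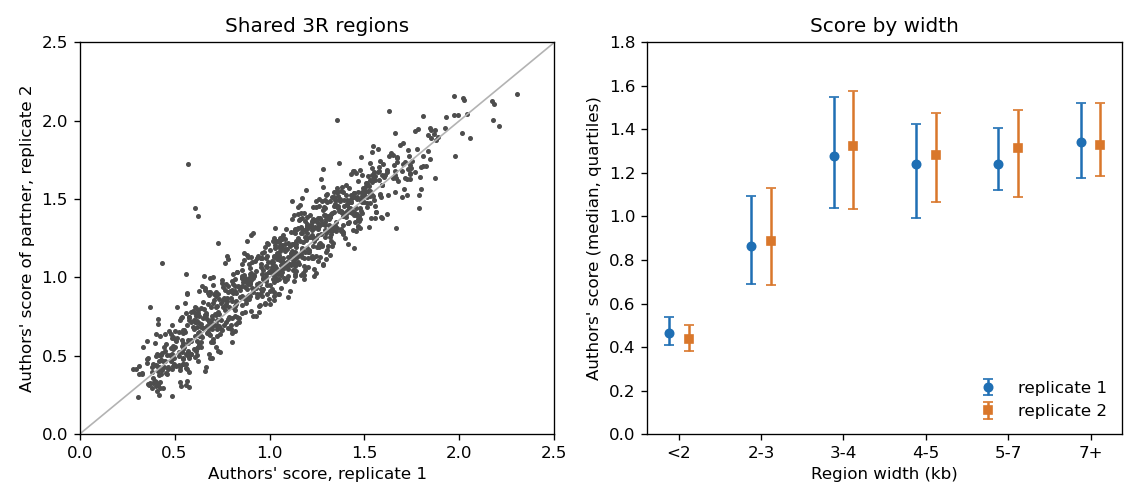
Left, the authors' score of each of the 942 shared 3R regions in replicate 1 (x axis) and of its best-scoring partner in replicate 2 (y axis), with the line of equal scores. Right, median score (symbols) and quartiles (bars) by region width in kb for shared regions of each replicate: the median climbs from 0.466 below 2 kb to 1.28 at 3 to 4 kb in replicate 1 and lies between 1.24 and 1.34 in the wider classes.

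The strongest MBD-R2 regions of 3R were of ordinary width and lay at several places along the arm. First in both lists was the region from 2948231 to 2951818, 3588 bp wide, with a score of 2.30 in replicate 1 and 2.17 in replicate 2. The region from 20947223 to 20950601 followed by mean rank, with scores of 2.18 and 2.11. Next came the region from 24887146 to 24890826, with 2.17 and 2.13. The regions from 3731756 to 3734863 and from 7834539 to 7838093 each scored 2.02 in replicate 1, and scored 2.14 and 2.13 in replicate 2. A pair of strong regions lay near each other on the centromere side, from 1472704 to 1476597 with scores of 2.21 and 1.97, and from 1483795 to 1487654 with 2.04 and 2.05. In the distal part of the arm, others of the 10 highest lay on either side of the region from 20947223 to 20950601. They ran from 20769336 to 20772515 with scores of 1.97 and 2.16, and from 21306987 to 21310278 with 1.99 and 2.04. Of the 10, 9 were between 3.11 and 3.89 kb wide. The exception spanned 10.2 kb from 25863959 to 25874114 and scored 2.18 in replicate 1. In replicate 2 it was joined to its neighbour into 13315 bp with a score of 2.01.

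Wider members had higher scores up to 3 to 4 kb, and no clear rise beyond. Members were between 1307 and 15150 bp wide in replicate 1, with a median of 3034 bp and quartiles of 2300 and 4153 bp. The shared regions of replicate 2 had a median of 3127 bp. Across members the Spearman correlation of width and score was 0.689 in replicate 1 and 0.656 in replicate 2. The 125 members narrower than 2 kb had a median score of 0.466, and the highest of them reached 0.744. The 335 members of 2 to 3 kb had a median of 0.866, and the 227 of 3 to 4 kb had 1.28. Beyond 4 kb the median stayed level, at 1.24 for 4 to 5 kb, 1.24 for 5 to 7 kb and 1.34 for the 50 members of 7 kb or more. Replicate 2 gave 0.435, 0.886, 1.32, 1.28, 1.32 and 1.33 for the same classes. Of the 50 members with the highest scores in replicate 1, 36 were 3 to 5 kb wide and 1 was 7 kb or wider. In replicate 2 these counts were 40 and 1. Width and score come from the same caller, and how it forms the score of a wide region is not stated in the labels or file headers.

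In replicate 1 the 5 widest members scored above 0.985, the median of all its regions on 3R. The fifth widest fell below the median of members, 1.05. None of the 5 was among the 10 highest. The widest spanned 15.2 kb from 8246199 to 8261348, with a score of 1.40 in replicate 1 and 1.39 in replicate 2. The next spanned 14953 bp from 7033941 to 7048893, with scores of 1.41 and 1.42. Scores were 1.06 and 1.24 for the 14302 bp region from 11164254 to 11178555, and 1.11 and 1.13 for the 13869 bp region from 19747109 to 19760977. The fifth widest, 11366 bp from 4126100 to 4137465, scored 1.03 and 1.19. Each of these 5 was a single region in both lists. The 5 narrowest, between 1307 and 1314 bp, started at 23750818, 12608877, 2260737, 9538872 and 5408728. Their replicate 1 scores ran from 0.309 to 0.575. The narrowest unshared regions were about as narrow, at 1308 bp in replicate 1 and 1305 bp in replicate 2. Whether the caller sets a least width is not stated.

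MBD-R2 regions alternated between dense and sparse stretches at the scale of 500 kb. Over the 55 full windows of 500 kb on 3R, the mean covered share of both replicates ran from 3.19% to 28.5%, with a median of 11.0%. The window from 1000001 to 1500000 was the densest in both replicates, at 27.5% in replicate 1 and 29.5% in replicate 2, with 33 members. The window from 19500001 to 20000000 was second in both, at 25.6% and 26.6%, with 30 members. The window from 25500001 to 26000000 followed at 23.9% and 24.3%, with 25 members of a median score of 1.36. In all, 8 windows exceeded 20%. They made up 14.3% of the arm and held 231 members, or 24.5%.

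The sparsest window by the mean of both replicates lay from 22000001 to 22500000, with 3.40% covered in replicate 1 and 2.99% in replicate 2. Its 6 members were also weak, with a median score of 0.612 in replicate 1 and 0.590 in replicate 2. Next were the windows from 26500001 to 27000000, at 3.28% and 4.49%, and from 3000001 to 3500000, at 4.30% and 4.59%. The window from 19000001 to 19500000 was covered to 3.77% and 5.17%, directly before the second densest of the arm. Few members did not always mean weak ones: its 6 members had a median score of 1.28. Across the windows, the number of members and their median score had a Spearman correlation of 0.142 in replicate 1 and 0.198 in replicate 2. The covered shares of the 55 windows in replicates 1 and 2 had a Spearman correlation of 0.976, given as a description of windows that share the libraries.

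**Figure D2:**
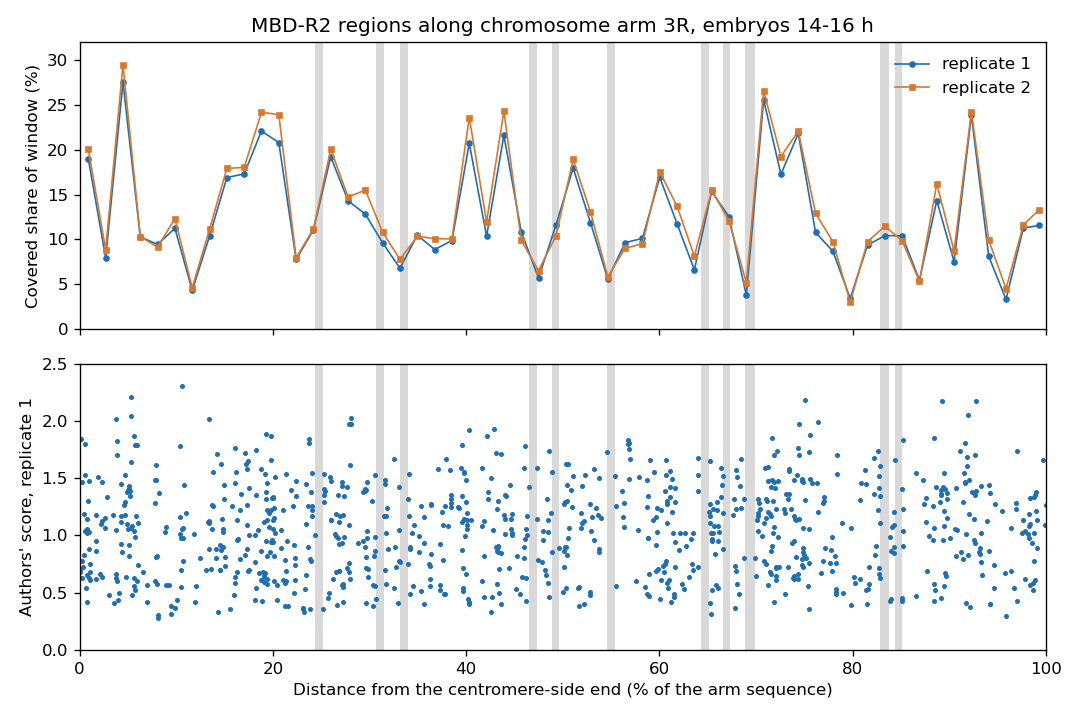
Top, covered share of each 500 kb window of 3R in both replicates. Bottom, the authors' replicate 1 score of each of the 942 shared regions. The x axis runs from the centromere-side end to the telomere-side end as a percentage of the arm sequence, and grey bands mark the 11 stretches of at least 200 kb without a region in either list, none of them at either end of the arm.

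Cut into 10 equal parts of 2.79 Mb, 3R held between 75 and 116 members a part. The first 3 parts from the centromere side held 110, 112 and 113, and the eighth, from 19533538 to 22324042, held the most with 116. Covered shares were 14.0%, 16.0% and 14.5% in the first 3 parts, between 9.99% and 12.1% in the other parts, and 15.9% in the eighth. Each of these is the mean of both replicates, whose SD was at most 0.843 points. The sixth part had the fewest members, 75, and the highest median score, 1.16 in replicate 1 and 1.25 in replicate 2. Elsewhere the median score lay between 0.986 and 1.13 in replicate 1 and between 1.03 and 1.18 in replicate 2.

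The centromere-side end of 3R was well covered right up to the start of the sequence. The first member lay from 8 to 1746, with a score of 0.697 in replicate 1 and 0.673 in replicate 2. The first 500 kb was covered to 19.0% in replicate 1 and 20.04% in replicate 2 and held 30 members. The first 2 Mb was covered to 16.2% in replicate 1 and 17.2% in replicate 2, a mean of 16.7% ± 0.70 (SD, n = 2), against 12.5% ± 0.60 for the rest of the arm. The difference of 4.16 ± 0.10 percentage points had the same sign in both replicates. Those 2 Mb held 92 members, 9.77% of all on 7.17% of the arm. Their median score of 1.05 in replicate 1 and 1.09 in replicate 2 was that of the rest of the arm, 1.05 and 1.10. Members there were slightly narrower, at a median of 2844 bp against 3045 bp elsewhere in replicate 1. The replicate 2 partners measured 3134 bp there, compared with 3200 bp elsewhere.

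The cover of the first 2 Mb came in blocks. In windows of 100 kb, that from 200001 to 300000 was covered to 37.6% in replicate 1 and 39.6% in replicate 2, with 11 members. The window from 1400001 to 1500000 reached 50.4% and 53.3%, with 10 members of a median score of 1.40 in replicate 1 and 1.37 in replicate 2. Between them, the windows from 800001 to 900000 and from 900001 to 1000000 were covered to less than 7% in each replicate. The window from 1700001 to 1800000 held no region in either list. Without the 500 kb from 1000001 to 1500000, the remaining 1.5 Mb of the end was covered to 12.7% ± 0.47 and held 59 members, against 12.5% ± 0.60 for the rest of the arm. The difference fell to 0.21 ± 0.13 points without that window, and for an end of 4 Mb it was 0.062 ± 0.11 points, with opposite signs in the replicates. The next 2 Mb, from 2000001 to 4000000, was covered to 9.06%, the second lowest of 13 segments of that size, while the first 2 Mb was the second highest after 20.2% from 4000001 to 6000000. At the other end of the arm, the last 2 Mb was covered to 9.04% ± 0.80, and the last member, from 27892284 to 27895613, ended 9.44 kb before the end of the sequence with scores of 1.27 and 1.22.

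**Figure D3:**
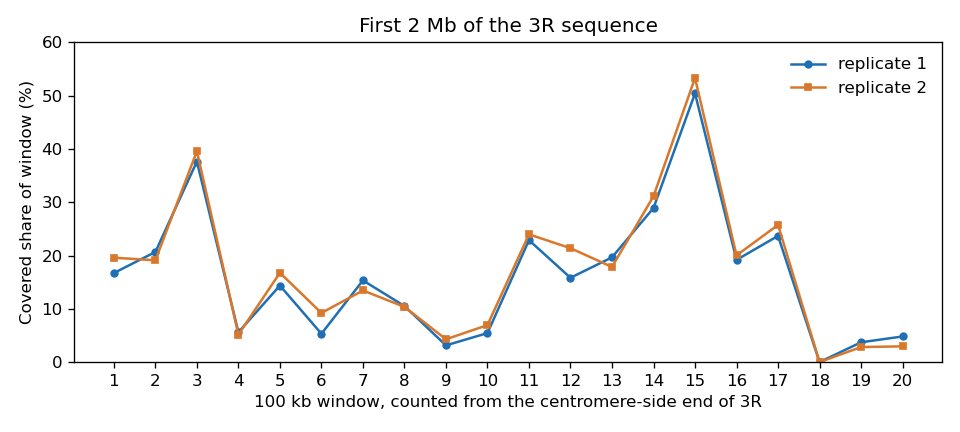
Covered share of each 100 kb window of the first 2 Mb of 3R in both replicates, counted from the centromere-side end. The third and fifteenth windows stand highest, at 37.6% and 50.4% in replicate 1, and the eighteenth is empty in both replicates.

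The other large arms had less cover at their centromere-side ends than elsewhere. The 2 Mb next to the centromere was covered to 5.89% ± 0.034 (SD, n = 2) on X, 7.34% ± 0.45 on 2L, 6.71% ± 0.46 on 2R and 3.90% ± 0.38 on 3L. The rest of those arms was covered to 14.98% ± 0.71, 11.5% ± 0.49, 15.8% ± 0.94 and 12.1% ± 0.93. The end minus the rest was thus 4.16 ± 0.10 points on 3R, -4.19 ± 0.039 on 2L, -8.18 ± 0.54 on 3L, -9.07 ± 0.48 on 2R and -9.08 ± 0.74 on X. For an end of 2 Mb the sign on 3R was opposite to that on the other 4 arms in both replicates. The size of the difference on 3R rests largely on the 500 kb from 1000001 to 1500000. Without that window the difference was 0.31 points in replicate 1 and 0.12 in replicate 2. The sign on 3R depends on the size of the end, since the replicates had opposite signs for 4 Mb. For an end of 4 Mb, a size compared across arms after the data were seen, end minus rest was 0.062 ± 0.11 points on 3R, -0.76 ± 0.23 on 2L, -3.76 ± 0.40 on 2R, -4.26 ± 0.62 on X and -4.41 ± 0.18 on 3L. An end of 1 Mb, likewise a late choice, stood 1.18 ± 0.084 points above the rest on 3R, with a positive sign in each replicate. On the other 4 arms the 1 Mb values were negative in each replicate. They were -5.22 ± 0.40 on 2L, -9.42 ± 0.65 on X, -10.1 ± 1.26 on 3L and -10.8 ± 0.60 on 2R. None of these contrasts was tested: an exact paired permutation test over 2 libraries cannot give a two-sided p below 0.5. How far the release 5 sequence of each arm reaches into repeated sequence near the centromere was not examined, and its part in the difference was not tested. The scaffold 3RHet, 2.52 Mb of heterochromatin, held 8 regions in each list, 7 of them shared, and was covered to 0.688% in replicate 1 and 0.722% in replicate 2.

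**Figure D4:**
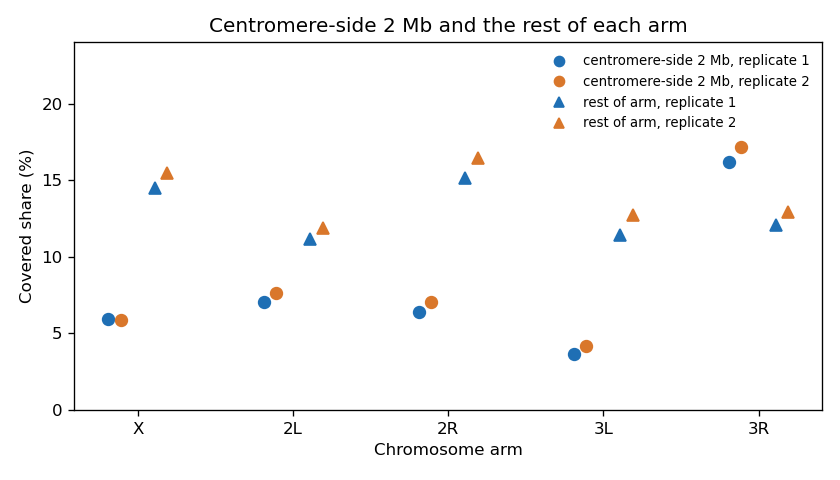
Covered share of the 2 Mb next to the centromere (circles) and of the rest of the arm (triangles) for the 5 large arms in both replicates. On 3R the circles lie above the triangles, at 16.2% and 17.2% against 12.1% and 12.9%, and on the other 4 arms they lie below.

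In gap, score and width 3R lay inside the range of the other large arms. Its median gap between regions was 6.60 kb ± 0.35 (SD, n = 2), between 5.01 kb ± 0.43 on X and 7.26 kb ± 0.85 on 3L. The median score of shared regions was 1.07 ± 0.029 on 3R, between 1.12 ± 0.034 on X and 0.977 ± 0.052 on 2R. Their median width was 3080 bp ± 65 on 3R, between 3271 bp ± 214 on X and 2964 bp ± 168 on 2L. No test of these differences was run.

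Neighbouring regions on 3R were often only a few kb apart, with a tail of long gaps. At the median they lay 6.85 kb apart in replicate 1, and 6.35 kb apart in replicate 2. Of 1044 gaps in replicate 1, 247 (23.7%) were under 2 kb and 62 (5.94%) were 100 kb or more. Those 62 gaps took up 35.7% of the arm. In replicate 2, 250 of 1087 gaps were under 2 kb and 60 were 100 kb or more. Some neighbours were nearly in contact, with 16 gaps of less than 0.1 kb in each list. The smallest measured 2 bp in replicate 1 and 0 bp in replicate 2, where neighbouring regions touched but were listed apart.

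**Figure D5:**
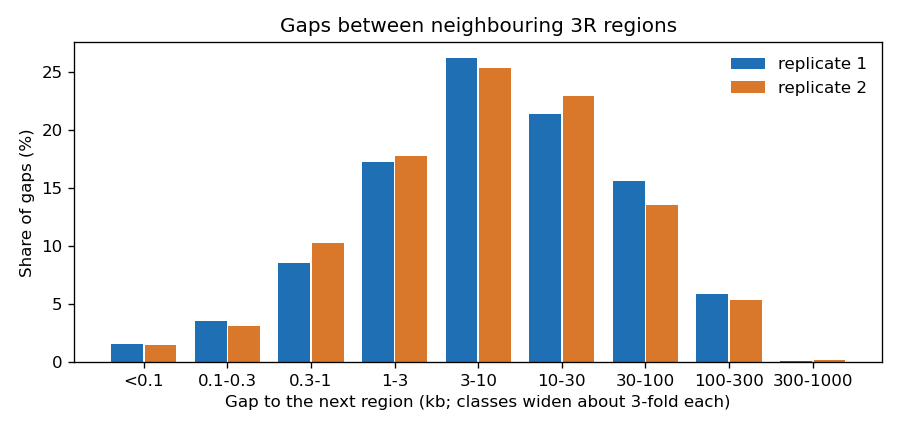
Share of the gaps between neighbouring 3R regions in each size class in kb, for both replicates. The commonest class is 3 to 10 kb, with 26.2% of gaps in replicate 1 and 25.4% in replicate 2.

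Close members formed runs. With members joined when less than 5 kb apart, 19 runs of 5 or more held 113 members, and 318 members stood alone. The longest run had 12 members in 70.9 kb from 5565095 to 5635986, with replicate 1 scores between 0.603 and 1.51 and a median of 1.14. Strong and weak regions were mixed along the arm. The Spearman correlation between the scores of neighbouring shared regions was 0.0759 in replicate 1 and 0.0815 in replicate 2. Score and width varied with the distance to the nearest member, though not steadily. The 363 members with another member less than 2 kb away had a median score of 1.09 and a median width of 3255 bp. The 374 with one at 2 to 10 kb had 1.08 and 3094 bp. The 205 members whose nearest neighbour was 10 kb or more away had 0.883 and 2453 bp. Among these, the 25 members at 50 kb or more had a median score of 0.997, nearer to the 1.05 of all members. In replicate 2 the median scores of the 3 sets were 1.14, 1.12 and 0.926.

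The longest stretches without MBD-R2 regions in either list lay away from the ends of 3R. There were 11 stretches of at least 200 kb with no region in either list, and they summed to 2.53 Mb, or 9.07% of the arm. None lay before position 6784743 or in the last 4.16 Mb. The longest, of 283 kb, ran from 19211479 to 19494825, directly before the second densest window. It was followed by 267 kb from 23117164 to 23383696 and by 237 kb from 6784743 to 7021573. Lengths of 232, 231, 230 and 229 kb were found from 12978794, 15231491, 8555096 and 17952001. The other 4 started at 9261592, 13637966, 23534443 and 18582145, with lengths of 209, 208, 206 and 201 kb. This placement holds for the 200 kb limit and for stretches empty in both lists. The longest stretch below that limit, 197 kb from 6242690, lay outside the span of the 11. So did 190.003 kb from 3092760 and 171 kb from 27639300 near the telomere-side end. With a limit of 100 kb there were 56 stretches covering 32.05% of the arm. These ran from 312737 to 27810273, so they reached into both ends. In single lists the 200 kb limit was also met outside the span of the 11 stretches. Replicate 2 alone had no region from 23790760 to 24150639, 360 kb and its longest gap. Replicate 1 has 1 region there, of 1.61 kb with a score of 0.493. Replicate 1 alone had no region between 3092760 and its member from 3298039, more than 200 kb.

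Strong and weak members alike were the nearest to the stretches. The 22 nearest members on either side of the 11 stretches had a median score of 1.18 in replicate 1 and 1.17 in replicate 2, against 1.05 and 1.09 for all members. Their median width was 3247 bp. Not all of the 22 bordered a stretch, since unshared regions lay between some of them and the stretch. The member before the stretch from 17952001 ended at 17868536. The member after the stretch that ended at 18783195 started at 18877672. The stretch from 23117164 began directly after a member from 23112806 with scores of 1.61 and 1.65, and that from 23534443 followed a member from 23530984 with 1.66 and 1.71. The stretch from 12978794 lay between members with scores of 1.42 and 1.59 in replicate 1. Weak members were also among the nearest. Scores were 0.356 in replicate 1 and 0.479 in replicate 2 for the member from 7025514 to 7027430. They were 0.425 and 0.628 for that from 23385063 to 23386425.

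A few members stood alone in long sparse surroundings. Near the middle of the arm, 397 kb from 15065538 to 15462601 held 1 region in each list, at 15227124 to 15231386 in replicate 1. It scored 1.73 in replicate 1, where it ranked 49 on the arm, and 1.82 in replicate 2. The longest sparse tract ran over 554 kb from 23790760 to 24345181, where regions covered 2.48% in replicate 1 and 2.20% in replicate 2 and 2 members lay. From 12978794 to 13358895, 380 kb held 3 members, the strongest with 1.59 in both replicates. By contrast, 236 kb from 11375090 to 11611529 held no member and 1 region of replicate 1 with a score of 0.544. Members with gaps of at least 100 kb to the next member on both sides numbered 4. Besides the one at 15227124, they started at 1832186, 3468384 and 8044027, and their replicate 1 scores were 0.684, 0.805 and 0.933.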

How the data were processed

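Per the submitters' processing notes, reads were processed with Bowtie 0.12.7, and per the file headers positions refer to FlyBase release 5. The deposited data are 3 region lists, 1 per ChIP replicate and 1 combined, in which the authors give every enriched region a score. The caller, its threshold, the scale of the score and the way the combined list was made are not stated in the labels or headers. Inputs enter only through the authors' calls, and depth is unknown.

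From the lists, overlaps, covered bases, windows, gaps and empty stretches were computed with SciPy 1.17.1, pandas 2.3.3 and NumPy 2.4.6 under Python 3.11.15, and plotted with Matplotlib 3.10.9. Scores were paired with the best-scoring partner. The functions were tested on simulated lists, and all 8 checks returned the planted values. Named regions follow a rule: the 10 highest by mean rank, the 5 widest and narrowest, the first and last, the borders of stretches of at least 200 kb, the extreme windows and the strongest unshared regions. The blocks of 100 kb, the sparse tracts and their lone members, the split site, the runs and the regions at the overlap limit were named after their values were seen. Members and rules were chosen with earlier results of these data known. No test was run: an exact permutation test over 2 libraries cannot give a two-sided p below 0.5. The comparison of ends of 1 and 4 Mb across arms, and of the end without its densest window, was added after the data were seen. A transcription start site comparison needs a release 5 annotation and was not analysed here, the available gene table being of release 6.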

Additional observations from a re-analysis of the deposited data

Results flagged for a closer look

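The combined list is outside the replicate lists that define the members, and it held 420 regions on 3R, 27.6% of its 1524, that overlap no region of either replicate. Their median score was 0.359 and their median width 1263 bp, and 230 of them were narrower than the narrowest replicate region on 3R, 1304 bp. The highest score among them was 2.56, given to both a 1015 bp region from 26222014 to 26223028 and a 1009 bp region from 3533320 to 3534328. They were noted as a signal in a list that the membership rule does not use.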

How the results depend on the processing

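Of 58 alternative values for 14 results, 23 stayed close and 35 moved. A count stayed close when within 1.5 times its reported value, and any other value when within 1 SD of both replicates. With 2 replicates this SD limit fixed some outcomes in advance. Where the reported value is the mean of both, leaving 1 replicate out always stays within 1 SD. Where it is the replicate 1 value, taking replicate 2 regions as members always moves it beyond 1 SD. Those outcomes say nothing about how stable a result is. No test was involved. An overlap of at least 50% of the shorter region left 939 members and moved none of the results it was applied to. With the 50% of 3R regions of highest score, shared regions numbered 501, the shared share was 95.8%, the covered share 8.40% and 10.8% in the first 2 Mb, and the median gap 15.1 kb. With replicate 2 regions as members, the shared share was 85.3%, the median width 3127 bp, the median score 1.09, the correlation of width and score 0.656 and that of scores 0.931. In the combined list the covered share was 17.4%, 22.5% in the first 2 Mb, 35.6% in the densest and 5.01% in the emptiest window. It had 2 empty stretches making up 1.69% of 3R, a median gap of 5.16 kb, and a median width of 3735 bp, a median score of 0.994 and a width-score correlation of 0.570 for regions found in both replicates. The count of empty stretches thus depends on the list: combined-list regions lay in 10 of the 11 and covered 0.940% of their bases. The covered share of the centromere-side end was 13.96% for the first 1 Mb and 12.9% for the first 4 Mb. The difference from the rest was 1.18 points for the first 1 Mb, 0.062 for the first 4 Mb and 0.21 without its densest 500 kb, all added after the data were seen. The densest window changed place with its size: it was 11000001 to 11200000 at 200 kb, with 48.8%, and 5000001 to 6000000 at 1 Mb, with 22.8%. The emptiest had 6.37% at 1 Mb, and at 200 kb those from 6800001 and 13000001 had 0%. Stretches of at least 100 kb numbered 56 and made up 32.05%. With 1 replicate left out, stretches of at least 200 kb numbered 13 to 14, which is close to 11 by the limit for counts. They made up 10.7 to 12.6% of the arm, which is not close by the limit for shares. That share could not fall, because every stretch empty in both lists is empty in each. The direction of its change was thus fixed in advance. Means in place of medians were 3498 bp for width and 22.8 kb for gaps. The start site comparison was not run. No paired analysis was possible because the input libraries have no list of their own to set against the ChIP libraries. Unknown depth limits what an absent region shows.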

Other observations

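The combined list drew neighbouring members together. On 3R, 74 of its regions spanned 2 or more members, and 1 from 10709610 to 10730858, 21.2 kb wide with a score of 1.24, spanned 4. Recurring scores were more common among unshared regions: 89 members of replicate 1 (9.45%) had exactly the score of another region of that list, with a median score of 0.690, against 29 of the 103 unshared regions (28.2%). In replicate 2 this held for 57 shared regions (6.14%) and 27 of 160 unshared ones (16.9%). Among members, the largest falls in rank from replicate 1 to replicate 2 were those of the regions starting at 10564025, with scores of 1.67 and 1.32, and 20114853, with 1.23 and 1.01. The largest rises were at 19865956, with scores of 0.571 and 1.73, and 1645804, with 0.606 and 1.44. In these 2 the replicate 2 partner was wider, 4815 bp against 1481 bp and 6412 bp against 2202 bp. The member at 19865956 overlapped its partner by only 58 bp. The partner of the member at 1645804 also overlapped the replicate 1 region from 1648605 to 1652043, which scored 1.79. These 2 rises therefore come from the pairing of unlike stretches and do not show a changed score of the same site.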
